A study of Mus musculus with 9 samples.

Results

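The transcripts described here encode 7 acyl-CoA thioesterases of mouse liver, Acot1, Acot2, Acot3, Acot4, Acot8, Acot12 and Acot13, out of 37074 gene names on the arrays. They were taken as the non-control probes whose gene name was one of these symbols, which gave 9 probes of 56605, with a pair of probes each for Acot3 and Acot4 and 1 probe for every other gene. Livers came from male C57BL/6N mice that received, by tail vein, a hepatocyte-directed adeno-associated virus. The virus was an empty vector (AAV-V) or carried mouse GP73, a Golgi membrane protein (AAV-GP73), both with a regular diet, and a further group received AAV-V with a high-fat diet (AAV-V HFD). All 3 groups therefore carried a virus, and no group was without one. Each group held 3 arrays. The labels give an age of 12 months, where the study's text gives 12 months after injection, its results and its methods differ in the length of the HFD, and whether an array held 1 mouse or a pool is not stated in the sources used here. The p values thus measure the spread between these samples. The study set the AAV-GP73 and HFD livers beside the AAV-V livers to find which changes in expression they had in common and which belonged to either, and Acot1 is among the genes that the study picked for display on these same arrays.

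Acyl-CoA thioesterases split fatty acyl-CoA into a free fatty acid and coenzyme A, and so act against the acyl-CoA synthetases that join them. They set how much activated fatty acid a compartment holds, and free fatty acids released by them can serve as ligands of the nuclear receptor PPAR-alpha. Acot1 works in the cytosol, Acot2 in mitochondria, and Acot3, Acot4 and Acot8 in peroxisomes. Acot12 is a cytosolic enzyme that hydrolyses acetyl-CoA, and Acot13, also called Them2, is found at mitochondria and in the cytosol and binds phosphatidylcholine transfer protein.

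The probes of Acot1, Acot2, Acot3 and Acot4 lay on chromosome 12 (mm9), where 4 genes and 6 probes spanned 66.5 kb in the order Acot2, Acot1, Acot4, Acot3. These neighbours encode closely related enzymes, so that the letters of a probe decide which transcript it reads. The longest run of bases that any member probe shared with another member probe was between 6 and 9, and 8 of the 9 shared no run of 20 bases with any other probe on the array. The exception was the Acot3 probe printed below, the 1 of its pair that was detected, which shared such a run with a probe of Itgam. The probes were compared with each other and not with the transcripts, so that these runs do not show which transcript a probe reads. The exons under the probes were not annotated here. The first 30 of the 60 bases of the probes on which the results turn are printed here in lower case, as the letters behind each signal. Of the 2 Acot3 probes the 1 that was detected is shown.
Acot1, chr12:85358452-85358511, plus strand: tatcaaaatagtgctgattcaagggctggg
Acot3, chr12:85400452-85400511, plus strand: gtgtacacacacacatatacacacaagcac
Acot8, chr2:164618360-164618419, minus strand: gcctcaggtgtcagagagtaagctatagtg
Acot12, chr13:91924390-91924449, plus strand: tcaactctcagctacctgtaatttaattcc
Acot13, chr13:24909838-24909897, minus strand: cgggaagacccgaagaagcccaacaatgcc

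Signals are given as scaled log2 signal, the log2 of the scanner's background-subtracted intensity after the arrays were shifted to 1 common level of the probes detected on all of them. A probe was detected on an array where the scanner software marked it as well above background. Between 6.67% and 7.21% of all probes were detected on the AAV-V arrays, 12.5% to 14.9% with AAV-GP73, and 10.2% to 13.2% with AAV-V HFD. The median unscaled signal of the 2665 probes detected everywhere was 35.8 ± 2.77 on the AAV-V arrays, 113 ± 14.3 on the AAV-GP73 arrays and 105 ± 25.2 on the AAV-V HFD arrays (SD, n = 3). The AAV-V arrays were thus the dimmest of the 3 groups, and the lowest detectable signal on them stood at 3.86 on the scaled log2 scale, so that AAV-V values below it show only that a transcript was dim. The AAV-V and AAV-GP73 arrays shared 1 slide and those of AAV-V HFD another, and the effects of slide and diet cannot be told apart. Golm1, which encodes GP73, was not detected on any array, and the labels could not be checked by it. The 12 hepatocyte markers were detected on every AAV-V and AAV-GP73 array, and 11 or 12 of them on the AAV-V HFD arrays. Summed erythroid marker signal ran from 397 to 984 on AAV-V arrays, from 3428 to 17442 on AAV-GP73 arrays and from 657 to 1144 on AAV-V HFD arrays. Of 10 macrophage markers, 2 to 3, 6 to 7 and 6 to 8 were detected in the same order, and of 5 adipocyte markers 0, 0 and 0 to 1, with Adipoq, Retn, Plin1 and Lep on no array. The part of these cells in the results below was not tested. In whole liver, fewer cells of a type and less RNA per cell cannot be told apart.

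In AAV-V livers only Acot13 was detected, on all 3 arrays, and the other 8 probes were detected on none. Of the 9 probes, 4, 5 and 7 were detected on the 3 AAV-GP73 arrays, and 4, 5 and 1 on the 3 AAV-V HFD arrays. Acot1, Acot8 and Acot12 joined Acot13 on all AAV-GP73 arrays. Of all probes detected on every AAV-GP73 array, 40.2% were detected on no AAV-V array, and the same held for 29.7% of those detected on every AAV-V HFD array. A total of 4 thioesterase probes could be tested, those of Acot1, Acot8, Acot12 and Acot13. The first 3 of them entered the test only because they were bright on the AAV-GP73 arrays, so that a difference from AAV-V was built into their selection, which also favours a higher level in AAV-GP73 than in AAV-V HFD.

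**Figure D1:**
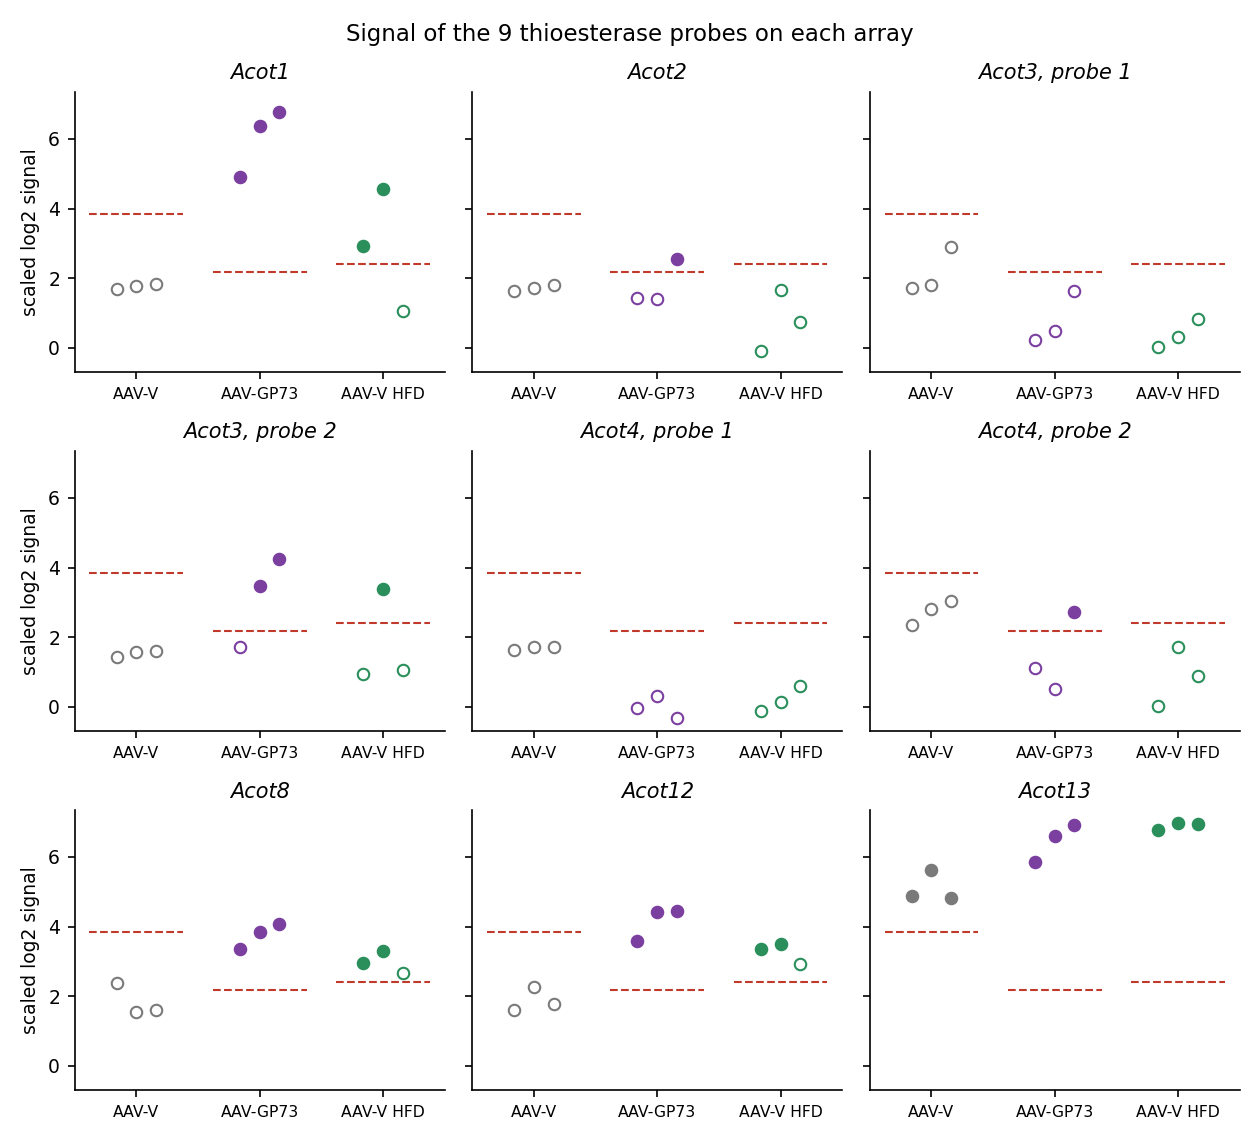
Scaled log2 signal of each of the 9 probes on each of the 9 arrays, with 1 panel per probe and filled points where the probe was well above background. Dashed red lines are the group means of the lowest signal well above background. Acot13 alone is filled in every group, Acot1 lies highest on the AAV-GP73 arrays, and the AAV-V points of the other probes lie under their line at 3.86.

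Acot1, the cytosolic long-chain thioesterase, had the largest fitted difference of the 4 members tested. Its scaled log2 signal was 1.69, 1.78 and 1.85 on the AAV-V arrays, with detection on none, and 4.92, 6.37 and 6.77 on the AAV-GP73 arrays, with detection on all. On the AAV-V HFD arrays it was 2.92 and 4.56 with detection, and 1.06 without. All AAV-GP73 arrays therefore lay above all arrays of both other groups, and 2 of the 3 HFD arrays lay above the AAV-V values. The third, undetected as the AAV-V arrays were, has no order against them, since its unscaled signal of 2.12 was above theirs and its scaled signal below. Unscaled, the Acot1 signal was 40.2, 112 and 186 on the AAV-GP73 arrays against 1.60, 1.60 and 1.96 on the AAV-V arrays.

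Against AAV-V, Acot1 was at least 4.47-fold higher in AAV-GP73 livers. This bound sets the mean of the AAV-GP73 arrays, 6.02 ± 0.98 (SD, n = 3), against the lowest signal that could be detected on the AAV-V arrays, and every bound below was made in the same way. It is made from group means and does not take the spread between arrays into account. The fitted log2 difference, which uses the undetected AAV-V signals as they stand (1.77 ± 0.08), was 4.25 with an SE of 0.71 and an adjusted p of 0.000452 by limma with Benjamini-Hochberg adjustment over 6593 probes. The bound was 8.91-fold when the arrays were set to each other by the 75th percentile of all probes, 14.4-fold when set by the spike-in controls, and 4.13-fold when set by the median of the detected probes. Between AAV-V HFD and AAV-V the fitted log2 difference of Acot1 was 1.08 (SE 0.71, limma adjusted p = 0.219) and was not called. It was called in 5 of 23 alternative analyses, with 1.97 once the third HFD array, the one without detection, was left out.

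Acot1 also differed between AAV-GP73 and HFD livers. The scaled log2 mean of the AAV-GP73 arrays was 6.02 ± 0.98 and that of the HFD arrays 2.85 ± 1.76 (SD, n = 3), a fitted log2 difference of 3.17 with a 95% interval from 1.62 to 4.73 (limma adjusted p = 0.0378). The size rests in part on 1 undetected HFD array, and Acot1 was tested because it was bright on the AAV-GP73 arrays, a selection that favours this direction and that the p does not take into account. In this comparison 2.08% of all probes were called higher in AAV-GP73. The call was lost in 14 of 23 alternative analyses, 7 of which left out 1 array, while the log2 difference stayed between 2.28 and 4.03. Without the third HFD array it was 2.28 (limma adjusted p = 0.0746), and over the 6 arrays of these groups alone the adjusted p was 0.0755. The AAV-GP73 and HFD arrays also lay on different slides.

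Acot2, Acot3 and Acot4, the neighbours of Acot1 on chromosome 12, were rarely detected and none of their probes could be tested. The second probe of Acot3, a peroxisomal long-chain thioesterase, was detected on 2 of 3 AAV-GP73 arrays, with a scaled log2 signal of 1.71, 3.47 and 4.26. It was detected on 1 of 3 HFD arrays, with 0.93, 3.39 and 1.05, and on no AAV-V array, where it gave 1.43, 1.56 and 1.61. The arrays with detected Acot3 were the AAV-GP73 arrays 2 and 3 and the HFD array 2. These arrays also had the highest signals of Acot1, Acot8, Acot12 and Acot13 in their group, so that the match is not particular to Acot1. The first Acot3 probe was detected on no array. The second is the one that shares a run of 20 bases with a probe of Itgam, and whether its signal comes from Acot3 alone was not tested. Acot2 and the second Acot4 probe were each detected on the third AAV-GP73 array only, at 2.55 and 2.71 on the scaled log2 scale. The third AAV-GP73 array also had the largest share of all probes detected, 14.9%. The first Acot4 probe was detected on none. No fold is given for these genes, since every group mean lay below the lowest signal detectable on the AAV-V arrays; for the second Acot3 probe the AAV-GP73 mean passed it with 2 other scalings, by 1.22-fold with all probes and 1.96-fold with the spike-in controls.

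Acot8, a peroxisomal thioesterase of broad substrate range, was detected on all AAV-GP73 arrays, on 2 of 3 HFD arrays and on no AAV-V array. Its scaled log2 signal was 2.39, 1.56 and 1.60 in AAV-V, 3.36, 3.85 and 4.06 in AAV-GP73, and 2.96, 3.29 and 2.68 in AAV-V HFD. In scaled signal neither of the 2 latter groups overlapped with AAV-V, and the AAV-GP73 arrays lay above the HFD arrays. The AAV-V signals and that of the third HFD array were undetected, so that these orders rest in part on undetected signals. The fitted log2 differences from AAV-V were 1.91 in AAV-GP73 (SE 0.32, limma adjusted p = 0.000482) and 1.13 in AAV-V HFD (limma adjusted p = 0.0128). Against the lowest signal detectable on AAV-V arrays no fold above 1 remained in either group, so that with this scaling neither the direction nor the size of the Acot8 difference was measured. With spike-in scaling AAV-GP73 was at least 2.99-fold higher. When local background was treated by normexp the AAV-GP73 difference was 0.85 (limma adjusted p = 0.08) and the HFD difference turned to -0.13. The HFD call was also lost without the second AAV-V array (log2 difference 0.98) and without the second HFD array (0.97).

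Acot12, the cytosolic acetyl-CoA hydrolase, showed the same order of groups in scaled signal. Its scaled log2 signal was 1.60, 2.27 and 1.78 in AAV-V, 3.59, 4.42 and 4.45 in AAV-GP73, and 3.36, 3.49 and 2.94 in AAV-V HFD, the last of these without detection. No AAV-GP73 or HFD array overlapped with the AAV-V arrays, whose Acot12 signals were all undetected. Acot12 was at least 1.23-fold higher in AAV-GP73 than in AAV-V, with a fitted log2 difference of 2.27 (SE 0.32, limma adjusted p = 0.000196). The first AAV-GP73 array, at 3.59, lay under the lowest detectable AAV-V signal of 3.86, so that this holds for the group mean alone. The bound was 2.44-fold with the scaling on all probes, 3.94-fold with the spike-in controls and 1.13-fold with the median of detected probes. In AAV-V HFD the fitted log2 difference was 1.38 (limma adjusted p = 0.00474), with no fold above 1 against the detectable level, and with normexp it was 0.44 (limma adjusted p = 0.428) and no longer called. Between AAV-GP73 and AAV-V HFD the log2 difference was 0.89 for Acot12 (95% interval 0.18 to 1.60, limma adjusted p = 0.186) and 0.78 for Acot8 (0.07 to 1.48, adjusted p = 0.253), and neither was called.

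Acot13 was the single member measured on every array, so that its differences needed no bound. Its scaled log2 signal was 4.89, 5.63 and 4.82 in AAV-V, 5.84, 6.61 and 6.91 in AAV-GP73, and 6.78, 6.98 and 6.95 in AAV-V HFD. All arrays of both other groups lay above the AAV-V arrays, and the HFD arrays lay within or just above the range of the AAV-GP73 arrays. Acot13 rose 2.53-fold in AAV-GP73 livers, a log2 difference of 1.34 (95% interval 0.61 to 2.07, limma adjusted p = 0.00484). It rose 3.45-fold in AAV-V HFD livers, a log2 difference of 1.79 (1.06 to 2.52, limma adjusted p = 0.00156). The difference between AAV-GP73 and AAV-V HFD was -0.45 (-1.18 to 0.29, limma adjusted p = 0.554), which leaves room for a higher level in either group.

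The number of probes called higher was large for all transcripts, and the thioesterase calls are read against it. Of all probes tested, 33.9% were called higher in AAV-GP73 than in AAV-V, and the 4 thioesterase probes tested were all called higher. In AAV-V HFD against AAV-V 25.1% of probes were called higher, and Acot8, Acot12 and Acot13 were among them. The selection described above fixed the direction of 3 of the 4 in advance for AAV-GP73, so that nothing is read from these counts. The median log2 difference over all tested probes was 0.64 in AAV-GP73 and 0.41 with HFD against AAV-V, and that of Acot13 lay above it in both. With the spike-in controls as the common level the median in AAV-GP73 became 2.32, that of Acot13 3.03, and 5124 of the 5217 probes called were higher, beside 2234 of 3416 with the scaling used above.

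**Figure D2:**
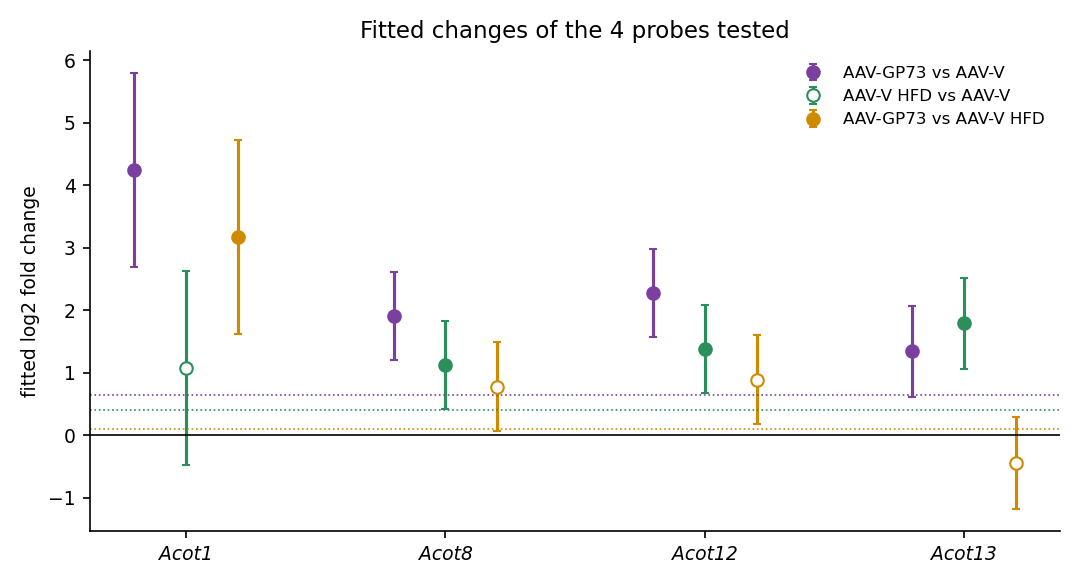
Fitted log2 fold change of the 4 tested probes in the 3 comparisons, with 95% intervals from limma, filled points where the probe was called, and dotted lines at the median of all probes tested. Acot1 stands at 4.25 against AAV-V and 3.17 against AAV-V HFD in AAV-GP73 livers, while Acot13 is called against AAV-V in both groups and not between them.

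**Figure D3:**
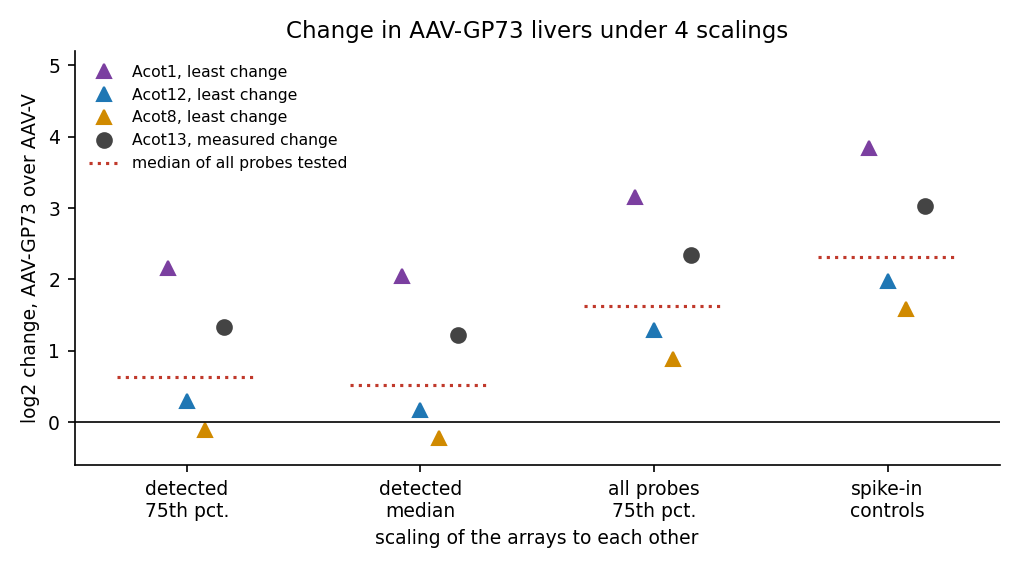
Log2 change in AAV-GP73 over AAV-V under 4 ways to set the arrays to each other, as the least change for Acot1, Acot8 and Acot12 (triangles), the measured change for Acot13 (points) and the median of all tested probes (dotted). The bound of Acot1 lies above the median under all 4 scalings, and those of Acot8 and Acot12 lie under it in all 4. The bound of Acot8 lies under 0 with both scalings on detected probes. The median is one of fitted changes, so that a bound under it does not show a smaller change.

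Ratios between members within an array do not change when the whole array is made brighter or dimmer. The log2 ratio of the Acot1 probe to the Acot13 probe ran from -0.93 to -0.14 on the AAV-GP73 arrays and from -5.89 to -2.42 on the AAV-V HFD arrays, and the groups did not overlap. The mean ratio was higher by 3.62 on the log2 scale in AAV-GP73. The ratio of Acot1 to Acot12 and that of Acot1 to Acot8 were likewise higher on every AAV-GP73 array than on any HFD array, by 2.28 and 2.39. The ratio of Acot8 to Acot13 was higher by 1.22, and that of Acot13 to Acot12 differed by -1.34, again with no overlap between AAV-GP73 and HFD arrays. The ratio of Acot8 to Acot12 ran from -0.57 to -0.23 and from -0.40 to -0.20 in these groups, which overlapped. With 3 arrays against 3 the exact permutation test, two-sided, cannot give a p under 0.1, which is the value of each of the 5 pairs without overlap, or 0.18 after adjustment over 18 tests of 6 pairs in 3 comparisons. The third HFD array holds undetected signals of Acot1, Acot8 and Acot12, and ratios on AAV-V arrays rest on undetected signals for all pairs. Acot1, Acot8 and Acot12 were tested only for their signal on the AAV-GP73 arrays, which favours a higher ratio to Acot13 there. The share of pairs without overlap over all probes was not computed, so that nothing is read from their number.

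**Figure D4:**
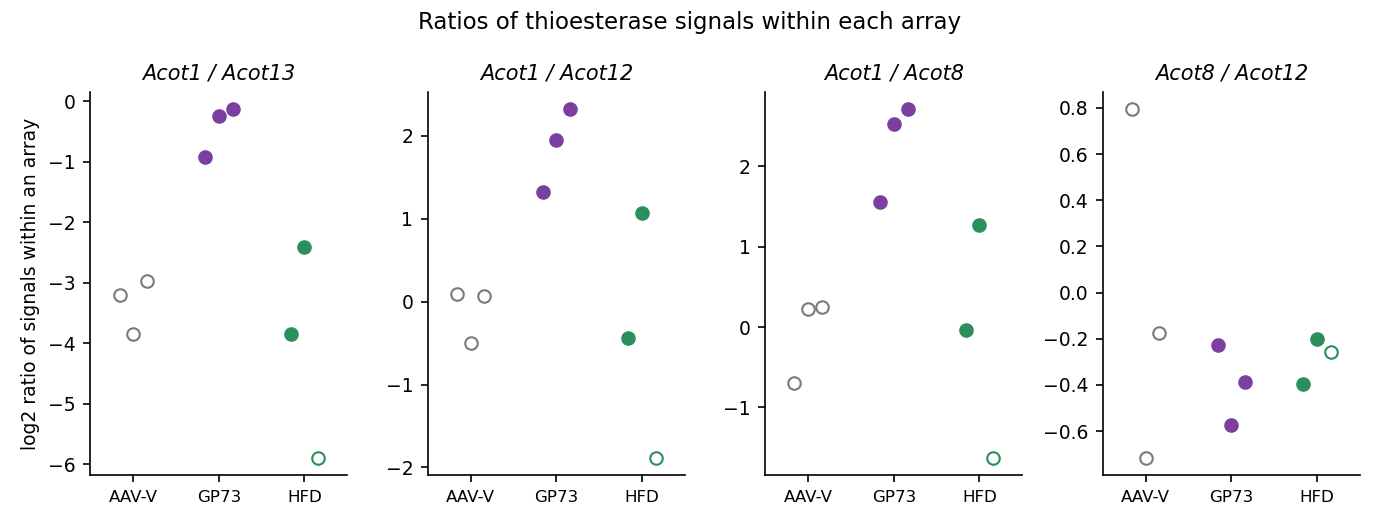
Log2 ratio of the signals of 4 pairs of members within each array, by group, each panel with its own axis; GP73 and HFD on the axis stand for AAV-GP73 and AAV-V HFD, and filled points mark arrays on which both probes were well above background. The ratio of Acot1 to each other member is higher on the 3 AAV-GP73 arrays than on the HFD arrays, and the ratio of Acot8 to Acot12 overlaps between them.

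Across the 9 arrays the members varied together to different degrees. Pearson's r of scaled log2 signal was 0.91 between Acot8 and Acot12 and 0.48 between Acot1 and Acot13, with the other pairs between these values. These arrays share groups and, for AAV-V, undetected signals, and r is given as a description. Among 5759 other genes the patterns most like that of Acot1 were those of Fahd1 (r = 0.989), Fam179b (0.970) and Ywhag (0.967), and 68 genes had an r above 0.9. For Acot13 they were Mrpl23 (0.990), Fabp2 (0.977) and Anapc13 (0.975), with 228 genes above 0.9. Acot8 was most like Prkd3 (0.994), Pttg1 (0.989) and Josd1 (0.988), and Acot12 most like Aadat, Decr2 and Acaa1b, each at 0.985 or 0.986. The last of these, Acaa1b, encodes a peroxisomal thiolase.

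Promoter sequence was read for 6 of the 7 members from RefSeq (GRCm38.p6), as the 250 bases before the gene start on the gene's strand. PPAR-alpha with its partner RXR is known to bind repeats of AGGTCA set 1 base apart, and this repeat was searched on both strands with at most 2 mismatches in its 12 motif letters, as was a single AGGTCA, which can lie inside the repeat. A repeat was found in the windows of Acot4 and Acot12, on the minus strand relative to the gene, beginning 13 and 110 bases before the start, and in both the single AGGTCA was part of it. Of 32851 promoter windows of mouse genes 3.236% held the repeat and 14.024% the single motif. The windows of Acot1, Acot2, Acot3 and Acot8 did not hold these letters. A match is a description of the sequence and not a measured binding site. The windows of Acot12 and Acot4, which hold the repeat (in capitals), and of Acot1, which had the largest difference in signal, are shown 5′ to 3′.
Acot12, chr13:91741271-91741520, plus strand: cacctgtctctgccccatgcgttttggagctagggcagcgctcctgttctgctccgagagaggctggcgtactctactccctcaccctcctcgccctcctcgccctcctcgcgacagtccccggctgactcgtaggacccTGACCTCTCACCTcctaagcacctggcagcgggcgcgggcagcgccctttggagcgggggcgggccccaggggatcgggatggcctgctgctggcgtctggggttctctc
Acot4, chr12:84038129-84038378, plus strand: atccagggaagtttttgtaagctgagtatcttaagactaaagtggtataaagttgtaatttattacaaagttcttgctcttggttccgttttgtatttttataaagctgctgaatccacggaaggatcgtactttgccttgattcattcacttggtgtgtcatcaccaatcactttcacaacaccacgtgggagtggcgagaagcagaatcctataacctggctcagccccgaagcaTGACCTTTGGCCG
Acot1, chr12:84009252-84009501, plus strand: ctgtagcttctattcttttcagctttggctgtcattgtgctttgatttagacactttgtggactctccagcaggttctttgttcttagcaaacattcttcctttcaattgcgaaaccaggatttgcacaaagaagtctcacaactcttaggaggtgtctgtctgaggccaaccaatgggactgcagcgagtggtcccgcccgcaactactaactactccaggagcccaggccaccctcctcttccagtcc
Of the genes with the repeat, Acot12 was detected on all AAV-GP73 arrays, and Acot4 by 1 of its probes on a single array.

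Genes that act next to the thioesterases were followed by the brightest probe of each gene, for 5763 genes tested. Against AAV-V, AAV-GP73 livers had 33.2% of these genes called higher and 19.4% called lower, and HFD livers 24.8% and 18.2%. Of 13 other thioesterase genes 3 were tested, and Hibch and Them4 were called higher in AAV-GP73. Hibch, the hydrolase of a valine breakdown intermediate, was at least 1.45-fold higher in AAV-GP73 and at least 1.21-fold higher in AAV-V HFD. Its other probes were detected on no array. Them4, a mitochondrial thioesterase, was detected on all AAV-GP73 arrays and on no other array. Against AAV-V its call rests on undetected AAV-V signals, with no fold above 1 against the detectable level. Them4 was at least 2.09-fold higher in AAV-GP73 than in AAV-V HFD. Since it was tested only for its signal on the AAV-GP73 arrays, no p is given for this bound. These were named because few genes were called, after their values were seen. Baat, which joins bile acids to amino acids, had fitted log2 differences from AAV-V of 0.40 with AAV-GP73 and -0.75 with HFD, and was called in neither.

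The acyl-CoA synthetases, which make the substrates of the thioesterases, were called in both directions with the scaling used above. Of 9 tested, AAV-GP73 livers had 5 called higher and 2 lower, and HFD livers 4 and 3. Across all genes a higher call was made for 33.2% with AAV-GP73 and for 24.8% with HFD. A lower call was made for 19.4% and 18.2%. Calls in both directions are thus not particular to the synthetases, and nothing is read from these counts. The median log2 difference of the synthetases was 1.03 with AAV-GP73 and 0.40 with HFD, beside 0.60 and 0.37 over all genes. On the AAV-V arrays 3 of the 9 were never detected, and 1 of the 3 called lower in HFD livers, Slc27a4, was detected on no array of either group. Acsl1, the main long-chain synthetase of liver, differed by 3.60 on the log2 scale in AAV-GP73 and 1.95 with HFD, and was detected on 1 AAV-V array. Its other tested probe, detected on the AAV-GP73 arrays alone, had scaled log2 means of 1.92 in AAV-V, 2.69 in AAV-GP73 and 1.24 with HFD. Slc27a2, a very long-chain synthetase of peroxisomes, rose by 2.09 and 1.54, and Slc27a5, which activates bile acids, by 1.54 in AAV-GP73. With the scaling used above Slc27a1 fell by 2.00 in AAV-GP73 livers, Slc27a1 in HFD livers was called lower at -1.27, and Acsl5 in AAV-GP73 livers at -1.54. With spike-in scaling these differences stood at -0.32, 0.06 and 0.14, and that of Slc27a4 in HFD livers at 0.13, so that none was a 2-fold fall.

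Genes of coenzyme A synthesis and breakdown were called higher for 4 of 5 tested in AAV-GP73 and for 3 of 5 in AAV-V HFD, and lower for none. Over all genes 33.2% and 24.8% were called higher. The median log2 difference was 1.93 and 1.61, beside 0.60 and 0.37 over all genes. Coasy, which completes the synthesis of coenzyme A, was at least 3.96-fold and 3.33-fold higher in these groups, and Nudt19, a peroxisomal hydrolase of coenzyme A, at least 2.07-fold and 2.04-fold. Another Nudt19 probe was detected on 2 AAV-GP73 arrays and 1 HFD array and was not tested. Its scaled log2 means were 2.35 in AAV-V, 2.79 in AAV-GP73 and 2.47 with HFD, all under the lowest detectable AAV-V signal. Pank3, a pantothenate kinase, was detected on all AAV-GP73 and HFD arrays and was called in both, with no fold above 1 against the detectable level. Slc25a42, the mitochondrial carrier of coenzyme A, was at least 1.22-fold higher in AAV-GP73 than in AAV-V, and was not called in AAV-V HFD (limma adjusted p = 0.522). The brightest probe of Nudt7, another such hydrolase, was not called, with log2 differences of 0.45 and 1.05, and its other tested probe had a scaled log2 mean of 5.17 in AAV-V against 3.43 and 3.97, so that the probes disagreed. Of the 5 genes tested 4 were detected on no AAV-V array, so that their fitted differences are not measured sizes. All of the called genes were among these 4, which entered the test through the other groups. This favoured a higher call, and nothing is read from the counts.

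Of 26 tested target genes of PPAR-alpha, a list that holds none of the 7 thioesterases, AAV-GP73 livers had 23 called higher and 3 lower, and HFD livers 20 and 4; Slc27a1 counts here and among the synthetases. Their median log2 difference was 3.36 and 2.35, beside 0.60 and 0.37 over all genes. Over all genes 33.2% and 24.8% were called higher. Of the 26 genes 12 were detected on no AAV-V array, a selection that favoured a higher call. Of the 7 detected on all arrays of both groups compared 5 were called higher and 2 lower in either comparison. The share over all genes detected in this way was not computed, so that nothing is read from this count. Acaa1b, a peroxisomal thiolase, rose by 3.49 on the log2 scale in AAV-GP73 and by 2.22 in AAV-V HFD. Decr1, which reduces unsaturated acyl-CoA in mitochondria, rose by 3.36 in AAV-GP73 and by 2.54 in AAV-V HFD. Acaa1a was called lower in both groups, at -1.53 and -2.36, and the first of these became 0.15 with spike-in scaling. One of the 4 called lower in HFD livers, Cyp4a14, an omega-hydroxylase of fatty acids, was detected on no array of AAV-V or AAV-V HFD, and its fitted value of -1.58 compares undetected signals. The study named several of these genes from these arrays, so that the list is not independent evidence of its direction.

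Of 8 tested carriers and regulators of acyl-CoA metabolism 6 were called higher and 1 lower in each group. Over all genes 33.2% were called higher in AAV-GP73 and 24.8% with HFD. The median log2 difference was 1.95 in AAV-GP73 and 1.52 with HFD, beside 0.60 and 0.37 over all genes. On the AAV-V arrays 3 of the 8 were never detected. In each group 2 of the higher calls came from these 3, a direction that their selection favoured. By its brightest probe Ppara, which encodes PPAR-alpha, was at least 2.16-fold higher in AAV-GP73 and at least 1.81-fold higher in AAV-V HFD. Its other tested probe had scaled log2 means of 1.83 in AAV-V, where it was undetected, 3.94 in AAV-GP73 and 3.63 with HFD. Against the lowest detectable AAV-V signal of 3.86 that probe gave no fold above 1 with HFD, and its AAV-GP73 mean lay just above. Rxra, which encodes its partner, rose by 1.62 and 1.42 on the log2 scale, and Hnf4a, a hepatocyte transcription factor, by 2.46 and 1.40. Scp2, a peroxisomal lipid carrier and thiolase, rose by 3.11 and 2.54. Dbi, the acyl-CoA binding protein that holds the substrates of the thioesterases, was called lower at -2.04 and -2.31, and stood at -0.36 and -0.98 with spike-in scaling, short of a 2-fold fall. Pctp, which encodes the protein that Acot13 binds and was named after its values were seen, was undetected throughout AAV-V and detected on each AAV-GP73 and HFD array, at least 1.94-fold and 1.47-fold higher.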

How the data were processed

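Liver RNA of 9 samples, labelled with Cy3, was read on Agilent arrays in 1 colour, each with 62976 spots, 59305 of them not controls. The deposited intensity values are processed signals of Feature Extraction (12.0.3.1 per the file headers, 10.7 in the submitters' processing notes), background-subtracted and detrended within each array and not scaled between arrays. An alternative used the authors' deposited log2 values, whose normalization is not given in the sources used here. Spots with an outlier mark (98 to 151 per array, none of them a member's) were left out, 0 spots were saturated, and spots of a probe were averaged on the log2 scale. Arrays were shifted to a common 75th percentile of the probes well above background on all 9 arrays, since few probes were detected.

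Probes detected on every array of some group (6593) were fitted over all 3 groups with limma 3.58.1 (lmFit and eBayes) in R 4.3.3. Calls needed a 2-fold change or more and an adjusted p (Benjamini-Hochberg) under 0.05. The bound on a fold takes, for the dimmer group, the higher of the lowest signal well above background on the array and the probe's own. Other genes stand for their brightest probe. Named genes were all members, up to 3 called genes per list, comparison with AAV-V and direction detected on all arrays of both groups, Ppara, Acsl1, Baat, Nudt7 and Nudt19, and the 3 genes most like each member, with others named as such. Some genes under this rule are not reported here, but stay in the counts of their lists. The members and lists were chosen with earlier results of these data known. The number of arrays limits the precision.

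Alternatives were 4 other scalings or normalizations (all probes, median of detected probes, spike-in controls, quantile), normexp (offset 1) on raw signals with their local background, the authors' log2 values, no filter or a stricter filter on dim probes, 1 probe per gene, a fit on just the groups compared, trend and robust settings of eBayes, no limit on the fold, the methods' t-test without and with adjustment, the replicate number as a block, and leaving out each array. The steps were tested on simulated data. Probe positions are those of mm9 in the files, and promoters those of RefSeq on GRCm38.p6.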

Additional observations from a re-analysis of the deposited data

Results flagged for a closer look

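The log2 difference of Acot1 from AAV-V was larger in AAV-GP73 than in AAV-V HFD livers by 3.17 (95% interval 1.62 to 4.73, limma adjusted p = 0.0378), which is the same as the difference between AAV-GP73 and AAV-V HFD. Acot1 was tested because it was detected on all AAV-GP73 arrays, against 2 of 3 AAV-V HFD and 0 of 3 AAV-V arrays, a selection that favours this direction and that the p does not take into account. All 3 AAV-GP73 arrays lay above all 3 AAV-V HFD arrays. The groups lay on different slides, so that slide and group cannot be told apart here.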

How the results depend on the processing

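Over the alternatives, 253 log2 differences of the 4 tested members kept direction and call, 20 lost the call, 5 gained it and 1 turned direction (Acot8 in AAV-V HFD against AAV-V, -0.13 with normexp). The Acot1 and Acot12 calls in AAV-GP73 against AAV-V and the Acot13 call in AAV-V HFD against AAV-V held in every alternative that tested them, and the Acot13 call in AAV-GP73 was lost with the methods' t-test after adjustment (adjusted p = 0.0604). Acot12 in AAV-V HFD lost its call with normexp (0.44).

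All values that follow are in the order AAV-GP73 against AAV-V, AAV-V HFD against AAV-V, and AAV-GP73 against AAV-V HFD, where 3416, 2770 and 176 probes and 4, 3 and 1 members were called. Spike-in scaling called 5217, 4514 and 378 probes. Normexp called 1411, 939 and 7, with 1 member in the second comparison and 0 in the last, and left 2, 2 and 3 pairs of members without overlap of their ratio, beside 5, 2 and 5. No filter on dim probes called 47083, 45123 and 77 probes and 8, 6 and 0 member probes. Of the 8 and of the 6, 3 member probes each were lower, since undetected signals of the dimmer AAV-V arrays are shifted up by the scaling. Detection on all 9 arrays left 2667 probes, 2 of them with an outlier mark on some array and so outside the 2665 used for scaling, and 1 member to test, and called 1251, 1089 and 71 probes and 1, 1 and 0 members. In the last comparison quantile normalization called 48 probes, the authors' log2 values 27 and the unadjusted t-test of the methods 389, each with 0 members, and the fit on only the groups compared called 0 members. The adjusted t-test called 1694 probes in the second comparison, and 13 probes and 0 members in the last. The cause was not tested for the remaining changes.

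Leaving out 1 array gave 4 to 4, 2 to 4 and 0 to 1 members, 3099 to 3514, 2400 to 2980 and 38 to 191 probes, and 4 to 5, 1 to 3 and 5 to 5 pairs without overlap. The last comparison lost the Acot1 call without any 1 of the AAV-V arrays, AAV-GP73 array 2 or 3, or HFD array 1 or 3 (adjusted p from 0.0509 to 0.181). With the replicate number as a block 3413, 2781 and 124 probes and 4, 3 and 1 members were called, and the block changed no member's call. Residuals of equal numbers correlated between -0.11 and 0.17, and the numbers were taken not to pair the samples. Signal over background limits the AAV-V group most, where 8 of the 9 probes were undetected.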
